A study of Mus musculus with 17 samples.

Results

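Vcam1, Hmox1 and a group of genes known from resident and erythroblastic island macrophages (C1qa, C1qb, C1qc, Cd5l, Spic, Axl and Mertk) were followed in sorted mouse common myeloid progenitors (CMPs) of adult marrow and fetal liver. The members were taken by name, 9 genes of 24416, and their counts were summed over RefSeq transcripts in each library. Erythroblastic islands are clusters in which a central macrophage holds maturing red cells, supplies iron, and engulfs the nuclei that the red cells expel. VCAM1 on the macrophage binds an integrin on the erythroblast, heme oxygenase 1 breaks down heme from ingested red cells, and SPIC is a transcription factor needed by the iron-recycling macrophages of spleen and marrow. C1q and the receptor kinases MERTK and AXL take part in the uptake of dying cells. These genes are not hallmarks of a CMP, the precursor of granulocytes, monocytes, red cells and platelets.

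The series measured messenger RNA in 17 libraries of 7 groups, to ask how LIN28B, a fetal RNA-binding protein, and the let-7 microRNAs it restrains act in myeloid development. Adult bone marrow gave 3 let-7b/c knock-out libraries, 2 inducible LIN28B libraries under vavcre, 2 inducible LIN28B libraries without it, and 3 wild-type libraries. Fetal liver gave 3 libraries labelled Lin28b knockout, 1 inducible let-7 library and 3 wild-type libraries. The strain was C57BL/6J except for the let-7b/c knock-out, labelled albino black 6, so strain and genotype cannot be told apart in that group. The labels list doxycycline exposure, which induced LIN28B, once for every sample, wild type included, and give no dose or age. The design text describes vavcre as the line in which induction is limited to blood-forming cells. Libraries are named here by group and by the number in their label, and no label states which animal each came from, so the spread behind the p-values is that between libraries and may be partly technical.

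Each library held 14957111 to 28165554 counts on transcripts. Levels are in CPM, the usual count scaled to sequencing depth, with library sizes after TMM normalisation in edgeR. Folds and adjusted p-values were taken from a two-sided quasi-likelihood fit in edgeR of 13558 genes, with a call at an adjusted p under 0.05, and intervals of counts are 95% intervals that cover counting error only. Lin28b itself stood at 104 ± 12.9 CPM in the libraries labelled Lin28b knockout and at 104 ± 17.6 CPM in wild-type fetal liver (SD, n = 3 each), so the count of this gene does not mark the label. The libraries labelled Lin28b knockout also stood apart in cell markers. Their 12 erythroid markers summed to 31461 to 37139 CPM against 356 to 584 CPM in wild-type fetal liver. The 8 CMP and stem cell genes, of which 5 had counts in these groups, summed to 139 to 175 CPM against 447 to 494 CPM. Kit, Cebpa and Runx1 were at 0 in all 17 libraries. The counting sets aside reads that fit several transcripts. Zeros in every library, here and below, therefore say nothing firm about the message.

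The members except Axl have 1 RefSeq transcript in the files. C1qb, C1qc and C1qa are neighbours on chromosome 4 at 136880126 to 136886200, 136889801 to 136892936 and 136895916 to 136898844 in build GRCm38.p6. Vcam1 lies on chromosome 3 at 116110020 to 116129688, Hmox1 on chromosome 8 at 75093618 to 75100593, Cd5l on chromosome 3 at 87357881 to 87371074, and Spic on chromosome 10 at 88675269 to 88683023. Mertk lies on chromosome 2 at 128698915 to 128803162 and Axl on chromosome 7 at 25756500 to 25788924.

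Promoter windows of 250 bases before to 50 bases after the gene start were taken from RefSeq (GRCm38.p6) for 6 of the 9 members: C1qb, C1qc, Cd5l, Spic, Axl and Mertk. They were searched on both strands for GAGGAA, the core bound by the ETS factors PU.1 and SPIC, for TGCTGA, a short site of the MAF factors of macrophages, for TGAGTCA, the AP-1 site, and for CACGTG, the E-box of TFEB and MITF. No window was available for Vcam1, Hmox1 and C1qa. Those of Axl and Mertk are not shown, and that of Mertk held no match. In the windows shown, capitals mark each match to GAGGAA or TGCTGA or to their reverse complements TTCCTC and TCAGCA. Of the 6 members, C1qb, C1qc, Cd5l and Spic differed most between the libraries labelled Lin28b knockout and wild-type fetal liver by log2 fold change. Their windows are shown. They lie at chr4:136886151-136886450 (minus strand), chr4:136892865-136893164 (minus), chr3:87357631-87357930 (plus) and chr10:88682974-88683273 (minus).
C1qb promoter: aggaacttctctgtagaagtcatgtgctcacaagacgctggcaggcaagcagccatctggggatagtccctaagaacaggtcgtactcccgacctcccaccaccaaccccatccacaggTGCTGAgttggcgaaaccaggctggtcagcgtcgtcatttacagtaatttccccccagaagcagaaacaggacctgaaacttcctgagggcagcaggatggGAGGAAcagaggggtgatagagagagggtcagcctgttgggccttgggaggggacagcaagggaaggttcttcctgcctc
C1qc promoter: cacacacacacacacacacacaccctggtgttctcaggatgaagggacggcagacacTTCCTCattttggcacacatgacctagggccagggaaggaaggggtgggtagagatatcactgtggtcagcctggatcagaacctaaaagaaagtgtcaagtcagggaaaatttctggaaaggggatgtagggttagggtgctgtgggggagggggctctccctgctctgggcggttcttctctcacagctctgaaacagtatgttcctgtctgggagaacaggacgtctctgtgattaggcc
Cd5l promoter: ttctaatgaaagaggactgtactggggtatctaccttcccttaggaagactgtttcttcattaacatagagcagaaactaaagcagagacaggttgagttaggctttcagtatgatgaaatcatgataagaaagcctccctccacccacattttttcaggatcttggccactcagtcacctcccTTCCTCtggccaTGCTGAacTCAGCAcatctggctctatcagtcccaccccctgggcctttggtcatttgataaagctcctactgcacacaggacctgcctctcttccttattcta
Spic promoter: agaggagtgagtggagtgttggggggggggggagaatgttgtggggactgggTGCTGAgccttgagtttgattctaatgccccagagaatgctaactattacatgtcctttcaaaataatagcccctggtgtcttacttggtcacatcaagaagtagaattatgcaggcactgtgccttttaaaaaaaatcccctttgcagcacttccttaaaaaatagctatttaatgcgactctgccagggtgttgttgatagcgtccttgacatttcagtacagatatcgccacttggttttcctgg
GAGGAA stood once each in the windows of C1qb, C1qc, Cd5l and Axl, and in 28.3% of 32851 promoters of the same length. TGCTGA stood once in C1qb and Spic and at 2 places in Cd5l, and in 19.5% of all promoters. The AP-1 site and the E-box had no match in the 6 windows, against 5.2% and 7.15% of all promoters. These matches are letters in a window and are not measured binding sites.

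**Figure D1:**
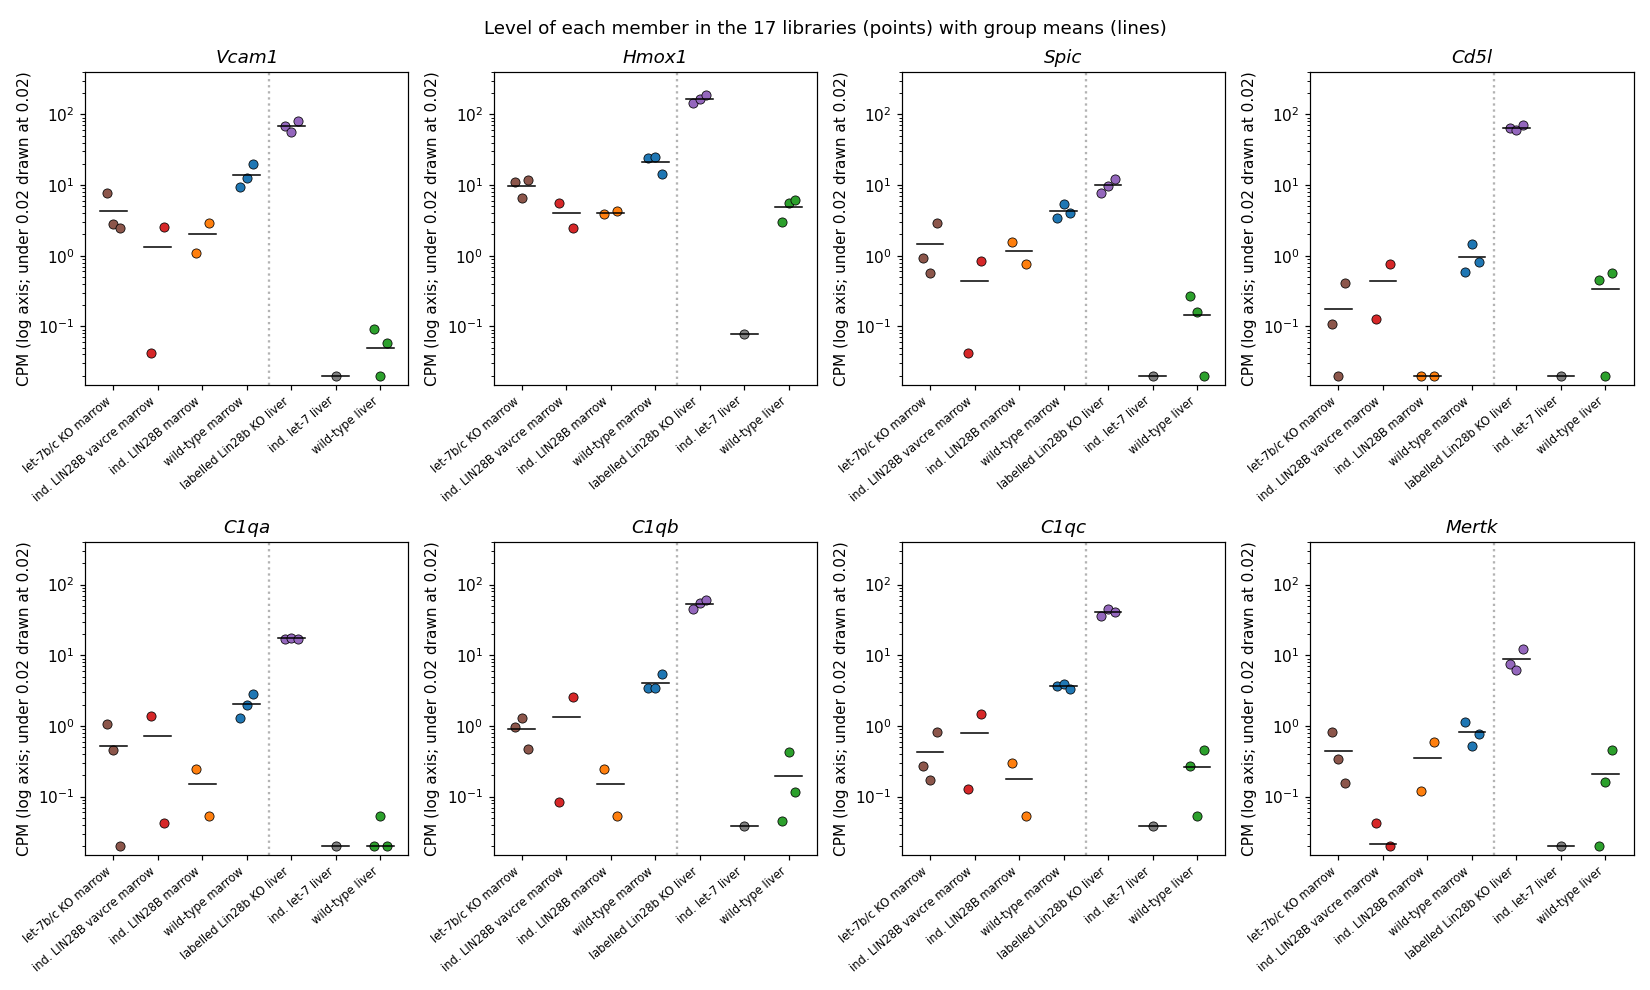
Level of the 8 members with counts in every library, in CPM on a log axis, with 1 point per library and a line at each group mean. Bone marrow groups are left of the dotted line and fetal liver groups right of it; in each panel the libraries labelled Lin28b knockout lie highest, wild-type marrow comes next by its mean, and values under 0.02 CPM are drawn at 0.02.

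The order of the groups was the same at its top for each of the 8 members with counts. The libraries labelled Lin28b knockout had the highest mean, wild-type marrow the next, and the ranges of these groups were apart for each member. The difference between these groups was not tested. How many of all genes lie apart between groups was not counted, so here and below ranges only describe the members. Below them the order differed between members and most neighbouring groups overlapped. Wild-type marrow was apart from the group next in order for Vcam1, Hmox1, C1qb, C1qc and Spic, and overlapped it for C1qa, Cd5l and Mertk.

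Many of the lower levels rest on few counts. Axl, a receptor kinase for the apoptotic cell bridge GAS6, had 0 counts in its 3 transcripts in all 17 libraries and was not tested. Reads that fit several transcripts of a gene are set aside by the counting, so the 0 of Axl says nothing firm about its message. Groups that summed to under 10 counts numbered 1 for Hmox1, 3 for C1qa, and 2 each for Vcam1, C1qb, C1qc, Cd5l, Spic and Mertk. In wild-type fetal liver, Vcam1 had 3 counts over 3 libraries, C1qa had 1 and Spic had 9. The filter on low counts asked for about 0.524 CPM in enough libraries. Wild-type marrow and the libraries labelled Lin28b knockout passed this level in every library for 8 members, whereas wild-type fetal liver did so for 1, Hmox1. Members that passed the filter through a high group had to differ from a low one, so the tallies that follow describe the members and support nothing by themselves.

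Adult wild-type marrow CMPs held more of these messages than fetal liver CMPs. Of the 8 members tested, 6 were higher in marrow and 0 lower, beside 27.1% of all tested genes called, 13.2% higher and 13.9% lower. DESeq2 called the same number, 6 higher and 0 lower, and 7 members had an unadjusted p under 0.05 in edgeR. No share of all genes is given for DESeq2 or for unadjusted p, so these tallies add no support. Their median log2 fold change was 4.07, against 0.08 over all tested genes. In bulk RNA, more cells of a type and more message per cell cannot be told apart.

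Vcam1, the adhesion molecule, stood at 9.23, 12.4 and 19.6 CPM in wild-type marrow libraries 2, 5 and 6, against 0.0908, 0 and 0.0573 CPM in wild-type fetal liver libraries 1, 4 and 5. All marrow libraries were above all liver libraries, and the liver values amount to at most 2 reads each. The ratio of the summed counts was 264 (counting interval 89.9 to 1282), with an adjusted p of 6.91e-05.

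Hmox1 was the member with counts in nearly every group. It stood at 24.5, 24.7 and 14.5 CPM in wild-type marrow, against 2.996, 5.5997 and 6.08 CPM in wild-type fetal liver. The ranges did not overlap, and marrow was 4.36-fold higher (log2 fold change 2.13 ± 0.32 SE, adjusted p = 0.000155).

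The C1q chains, which assemble into the recognition part of the first complement component, were also higher in marrow. C1qa stood at 1.29, 1.99 and 2.85 CPM in marrow, and in fetal liver 1 read was found in library 4 and 0 in the others. Its ratio of 117 therefore has a wide interval, 20.6 to 4670 (adjusted p = 0.00255). C1qb stood at 3.43, 3.40 and 5.42 CPM in marrow against 0.0454, 0.431 and 0.115 CPM in fetal liver. That is 20.7-fold higher in marrow (log2 fold change 4.37 ± 0.84, adjusted p = 0.00111). C1qc stood at 3.62, 3.92 and 3.34 CPM in marrow and at 0.272, 0.0538 and 0.459 CPM in fetal liver, 13.7-fold higher (log2 fold change 3.77 ± 0.72, adjusted p = 0.00102). None of the 3 chains overlapped between the groups.

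Spic, the transcription factor, stood at 3.38, 5.33 and 4.05 CPM in marrow against 0.272, 0.162 and 0 CPM in fetal liver. Marrow was 27.0-fold higher without overlap (log2 fold change 4.76 ± 0.91, adjusted p = 0.00108). The other members were not called. Cd5l, a protein secreted by tissue macrophages, stood at 0.596, 1.46 and 0.822 CPM in marrow against 0.454, 0 and 0.573 CPM in fetal liver (log2 fold change 1.45 ± 0.76, adjusted p = 0.188). Mertk stood at 1.14, 0.527 and 0.767 CPM in marrow against 0, 0.162 and 0.459 CPM in fetal liver (log2 fold change 2.01 ± 0.87, adjusted p = 0.107). For both, the lowest marrow library still lay above the highest liver library. Without wild-type fetal liver library 5, Mertk was called (adjusted p = 0.0400).

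Of 13 tested genes of resident macrophage identity, 2 were higher in marrow, 1 was lower and the median log2 fold change was -0.03. Adgre1, which encodes F4/80, a surface protein of mouse macrophages, averaged 5.78 ± 1.70 CPM in wild-type marrow and 5.90 ± 2.09 CPM in wild-type fetal liver. Among them Cd68, a lysosomal protein, rose 2.53-fold in marrow (adjusted p = 0.000765). Marco, a scavenger receptor, was lower, at 1 count in marrow and 20 in liver (adjusted p = 0.0142). Siglec1 and Vsig4, surface proteins of tissue macrophages, were at 0 in wild-type fetal liver. This list and the next lists of marrow over liver stand beside 13.2% higher and 13.9% lower over all tested genes.

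Partners of Hmox1 moved in both directions. Of 15 tested genes of heme breakdown, iron recycling and the oxidative stress response, 5 were higher in marrow and 1 lower, with a median log2 fold change of 0.68. Gclm, a subunit of the enzyme for glutathione synthesis, averaged 197 ± 5.39 CPM in marrow and 89.9 ± 10.4 CPM in fetal liver (adjusted p = 3.88e-07). Slc48a1, a heme transporter, rose to 259 ± 10.6 CPM in marrow against 149 ± 11.04 CPM in liver (adjusted p = 2.09e-05). Trf, the iron carrier transferrin, averaged 337 ± 30.7 CPM in marrow against 97.8 ± 3.83 CPM in liver (adjusted p = 4.80e-07).

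The adhesion, clearance and complement genes around the members gave mixed counts. In the island adhesion list, 1 of 6 tested genes was higher in marrow and 2 were lower. Itga4, the integrin chain that binds VCAM1, fell to 297 ± 10.6 CPM in marrow against 378 ± 41.1 CPM in liver (adjusted p = 0.0157), and Itgb1, its partner chain, was lower too (adjusted p = 0.00406). Icam4, an adhesion molecule of erythroblasts, was 38.1 ± 3.21 CPM in marrow against 16.5 ± 0.965 CPM in liver (adjusted p = 3.75e-06). In the list for clearance of apoptotic cells and nuclei, 4 of 12 were higher and 4 lower. Among these, Pros1, a ligand of MERTK, averaged 14.4 ± 4.20 CPM in marrow and 37.6 ± 3.09 CPM in liver (adjusted p = 0.00258). In the complement list, 5 of 11 were higher and 0 lower, with C1ra, the protease carried by C1q, at 5.41 ± 2.19 CPM in marrow and 0.300 ± 0.161 CPM in liver (adjusted p = 6.23e-05).

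Markers of other cells differed along with the members. All 9 tested granulocyte markers were higher in marrow, as were 3 of 10 monocyte and dendritic markers and 3 of 4 megakaryocyte markers, and 0 genes of these lists were lower. Erythroid markers gave 1 higher and 1 lower of 12, hepatocyte markers 0 of 10, and stroma and endothelium markers 2 higher of 9 (Bgn and Cxcl12). The summed hepatocyte markers were 6.32 to 7.89 CPM in marrow and 3.78 to 5.87 CPM in liver. The part of any of these cells in the members' difference was not tested.

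The libraries labelled Lin28b knockout held the highest level of every member with counts. All 8 tested members were higher than in wild-type fetal liver, beside 43.8% of all tested genes called, 20.8% higher and 23% lower. The median log2 fold change of the members was 7.40, against 0.00 over all tested genes. This comparison and the one between marrow and liver share the wild-type fetal liver libraries. Each of the 8 calls held when any single library was left out.

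Hmox1 stood at 145, 168 and 187 CPM in the libraries labelled Lin28b knockout 3, 6 and 8, against 2.996, 5.5997 and 6.08 CPM in wild-type fetal liver. It rose 34.2-fold (log2 fold change 5.10 ± 0.35, adjusted p = 1.27e-08). Vcam1 stood at 68.3, 56.0 and 80.9 CPM against 0.0908, 0 and 0.0573 CPM. Its ratio of summed counts was 1336 (counting interval 457 to 6479, adjusted p = 1.50e-06). The wild-type side of the Vcam1 ratio rests on 3 reads, whereas that of Hmox1 rests on 276.

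C1qa was nearly level among the libraries labelled Lin28b knockout, at 17.2, 17.7 and 17.1 CPM, against 1 read in all of wild-type fetal liver (ratio 1007, counting interval 180 to 39800, adjusted p = 3.56e-05). C1qb stood at 45.2, 55.8 and 61.1 CPM against 0.0454, 0.431 and 0.115 CPM (log2 fold change 8.09 ± 0.86, adjusted p = 1.77e-06). C1qc stood at 35.5, 45.8 and 40.8 CPM against 0.272, 0.0538 and 0.459 CPM (log2 fold change 7.26 ± 0.75, adjusted p = 1.31e-06). Every library labelled Lin28b knockout lay far above every wild-type one for all 3 chains.

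Cd5l was high in the libraries labelled Lin28b knockout and low in both wild-type groups. It stood at 64.1, 60.7 and 70.8 CPM in the libraries labelled Lin28b knockout, 0.454, 0 and 0.573 CPM in wild-type fetal liver and 0.596 to 1.46 CPM in wild-type marrow. Against wild-type fetal liver its log2 fold change was 7.54 ± 0.73 (adjusted p = 1.09e-06). Spic stood at 7.68, 9.68 and 12.2 CPM in the libraries labelled Lin28b knockout, 3.38 to 5.33 CPM in wild-type marrow and 0.272, 0.162 and 0 CPM in wild-type fetal liver (log2 fold change to liver 5.97 ± 0.93, adjusted p = 8.75e-05). Mertk stood at 7.58, 6.22 and 12.4 CPM against 0, 0.162 and 0.459 CPM in wild-type fetal liver (log2 fold change 5.41 ± 0.91, adjusted p = 0.000168). The ranges were apart for all of them.

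**Figure D2:**
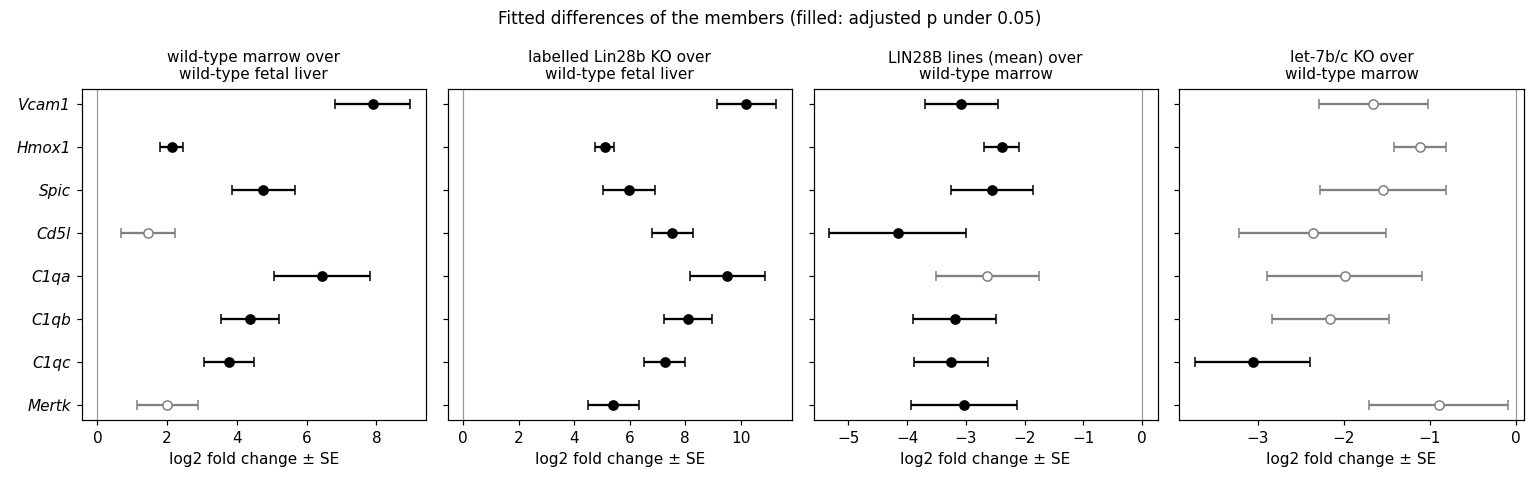
Fitted log2 fold change of 8 members with its SE in 4 comparisons, each with its own horizontal scale, filled where the adjusted p was under 0.05. All points lie right of 0 against wild-type fetal liver and left of 0 against wild-type marrow; Vcam1 and C1qa rest on 3 counts and 1 count in wild-type fetal liver, and Cd5l on 0 counts in the inducible LIN28B line without vavcre, so their fitted sizes depend on the fit's prior count.

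A wider set of macrophage genes was higher in the libraries labelled Lin28b knockout as well. Of 13 tested genes of resident macrophage identity, 11 were called higher and 0 lower, with a median log2 fold change of 4.71. This list and the next lists of the comparison stand beside 20.8% higher and 23% lower over all tested genes. Vsig4 and Siglec1 had 0 counts in wild-type liver, and with both set at their bound the median was 3.75. Marco rose to 46.4 ± 8.67 CPM against 0.337 ± 0.246 CPM in wild-type liver (adjusted p = 8.27e-08). Timd4, a receptor for exposed phosphatidylserine, rose to 13.1 ± 3.09 CPM against 0.142 ± 0.162 CPM (adjusted p = 5.53e-05). The summed level of the list was 186 to 228 CPM against 18.5 to 20.8 CPM. Cd163, the hemoglobin scavenger receptor, was at 0 counts in both groups, and Siglec1 stood at 0.595 ± 0.596 CPM against 0.

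In the heme and iron list, 13 of 15 tested genes were higher and 0 lower, with a median log2 fold change of 2.42. Gclm rose to 1046 ± 45.6 CPM against 89.9 ± 10.4 CPM (adjusted p = 5.69e-13), and Slc48a1 to 668 ± 49.0 CPM against 149 ± 11.04 CPM (adjusted p = 1.49e-10). Nqo1, a target of the oxidative stress factor NRF2, rose to 50.6 ± 3.84 CPM against 5.31 ± 0.424 CPM (adjusted p = 3.91e-09). Ftl1, the ferritin light chain, rose to 8069 ± 478 CPM against 1507 ± 17.3 CPM (adjusted p = 6.81e-13). Several of these genes are also used by red cells.

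On the adhesion side, Itga4 rose to 612 ± 65.1 CPM in the libraries labelled Lin28b knockout against 378 ± 41.1 CPM in wild-type liver (adjusted p = 3.34e-05), and Icam4 to 382 ± 7.998 CPM against 16.5 ± 0.965 CPM (adjusted p = 9.16e-13). Itgav, another integrin chain, was lower (adjusted p = 0.0193), which made 2 higher and 1 lower of 6. Of 12 clearance genes, 5 were higher and 2 lower. Stab2, a scavenger receptor that sinusoidal endothelium is known for, rose to 18.5 ± 5.66 CPM against 0.226 ± 0.264 CPM (adjusted p = 1.53e-05), and Elmo1, a part of the engulfment machinery, fell to 28.9 ± 4.63 CPM against 120 ± 11.6 CPM (adjusted p = 9.80e-10). Of 11 complement genes, 7 were higher and 2 lower. C3 rose to 139 ± 49.5 CPM against 2.17 ± 0.917 CPM (adjusted p = 2.77e-05), whereas Cd93, a surface protein, fell to 33.9 ± 5.90 CPM against 166 ± 6.19 CPM (adjusted p = 1.30e-08).

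Markers of other cell types also differed in this comparison, in which 43.8% of all tested genes were called. All 12 erythroid markers, all 10 tested hepatocyte markers and all 4 tested megakaryocyte markers were higher, as were 8 of 9 granulocyte and 7 of 9 stroma and endothelium markers. Monocyte and dendritic markers gave 2 higher and 1 lower of 10, and CMP and stem cell genes 4 lower of 5. Hepatocyte markers summed to 354 to 1352 CPM against 3.78 to 5.87 CPM in wild-type liver, with Ahsg at 0, and stroma and endothelium markers to 35.1 to 134 CPM against 6.19 to 8.53 CPM, with Pdgfrb, Pecam1 and Tek at 0. The part of these cells in the members' rise was not tested.

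The 3 libraries labelled Lin28b knockout differed from each other in hepatocyte genes and in some stromal and macrophage genes. Alb stood at 110, 219 and 435 CPM in libraries 3, 6 and 8, a highest to lowest ratio of 3.94, and the ratio was 3.58 for Afp and 4.31 for Apoa1. Among the members this ratio ran over 1.03 for C1qa, 1.17 for Cd5l, 1.28 for Hmox1, 1.29 for C1qc, 1.35 for C1qb, 1.44 for Vcam1, 1.59 for Spic and 1.99 for Mertk. Outside the members, the macrophage genes Adgre1 and Siglec1 had 1.06 and 10.8, with Siglec1 at 0.117 to 1.26 CPM, the stromal gene Cxcl12 had 2.24, and the red cell genes Klf1 and Fech had 1.09 and 1.17. The ratio of each member to Alb therefore differed between these libraries. In order, Hmox1, C1qb and Spic rose from library 3 over 6 to 8, as Alb, Afp and Apoa1 did. Vcam1, Cd5l and Mertk were also highest in library 8, whereas C1qa and C1qc were highest in library 6. Whether the members and the hepatocyte genes share a source was not tested.

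**Figure D3:**
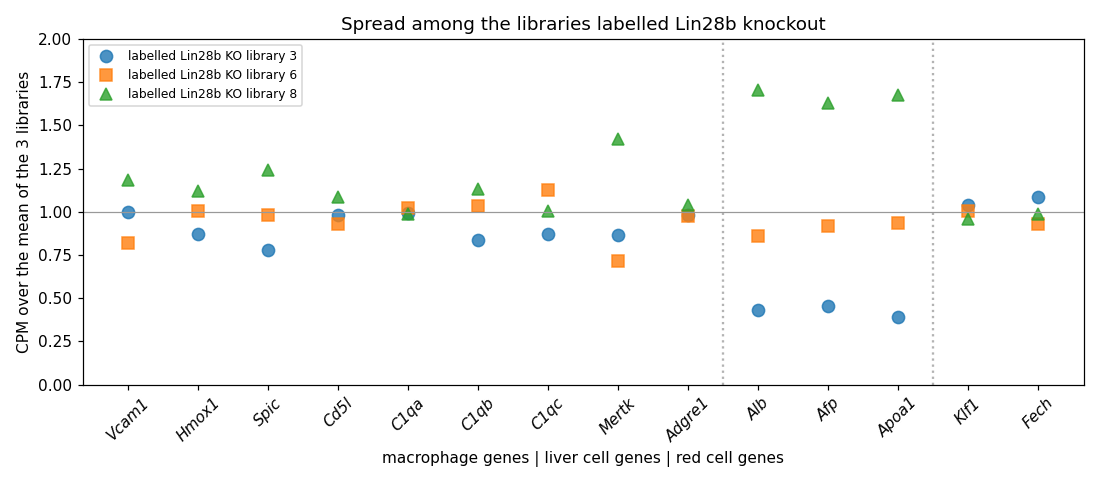
Level of each gene in the 3 libraries labelled Lin28b knockout over the mean of those libraries, with 1 symbol per library. Members and Adgre1 are left, Alb, Afp and Apoa1 in the middle and the red cell genes Klf1 and Fech right; of the genes drawn, the hepatocyte genes spread widest, with library 8 highest and library 3 lowest in each.

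LIN28B induction in adult marrow went with lower levels of the members. Averaged over the lines with and without vavcre, 7 of 8 members were lower than in wild-type marrow and 0 higher, beside 14.4% of all tested genes called, 7.86% lower and 6.59% higher. DESeq2 called 8 lower and 0 higher, and all 8 had an unadjusted p under 0.05 in edgeR. Beside these 2 tallies no share of all genes is given, so they add no support. The median log2 fold change was -3.05 over the members, or -2.83 with Cd5l at its bound, and -0.07 over all tested genes. The number of calls was not firm: it was 2 when the fit held only the groups compared, and between 4 and 8 when 1 library was left out. Hmox1 and C1qc were called under each of 13 alternatives, the largest adjusted p being 0.0134 for Hmox1 and 0.0491 for C1qc.

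Hmox1 stood at 5.53 and 2.49 CPM in the vavcre libraries 4 and 6 and at 3.89 and 4.25 CPM in the inducible libraries 1 and 5, against 24.5, 24.7 and 14.5 CPM in wild-type marrow. All 4 LIN28B libraries lay below all wild-type libraries. The fall was 5.25-fold over the lines (log2 fold change -2.39 ± 0.29, adjusted p = 0.000246), and each line was called on its own (log2 fold change -2.40 ± 0.37 with vavcre, adjusted p = 0.000270, and -2.38 ± 0.38 without, adjusted p = 0.00685). The call without vavcre was lost when either of its libraries was left out (adjusted p = 0.0962 without library 1 and 0.107 without library 5), which leaves 1 library on that side.

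Vcam1 stood at 0.0422 and 2.57 CPM with vavcre and at 1.09 and 2.90 CPM without it, against 9.23, 12.4 and 19.6 CPM in wild-type marrow. No LIN28B library reached the wild-type range, and vavcre library 4 had 1 read where library 6 had 61. The fall was 8.44-fold over the lines (log2 fold change -3.08 ± 0.62, adjusted p = 0.00446). It was called with vavcre (log2 fold change -3.39 ± 0.82, adjusted p = 0.00677) and not without (-2.77 ± 0.80, adjusted p = 0.148), and the difference between the lines was not called (log2 fold change -0.62 ± 0.88, vavcre over no vavcre, adjusted p = 0.673).

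The C1q chains did not behave alike in the vavcre libraries. Library 4 held 33 reads of C1qa, 2 of C1qb and 3 of C1qc, whereas library 6 held 1, 61 and 35. In CPM this was 1.39, 0.0844 and 0.127 in library 4, and 0.0422, 2.57 and 1.48 in library 6. Without vavcre the chains had 4, 4 and 5 reads in library 1 and 1 read each in library 5. Wild-type marrow held 26 to 52 reads of C1qa, 58 to 99 of C1qb and 61 to 73 of C1qc per library.

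C1qc fell 9.55-fold over the lines (log2 fold change -3.26 ± 0.63, adjusted p = 0.00364) and C1qb 9.14-fold (-3.19 ± 0.71, adjusted p = 0.00770), with no overlap. C1qa overlapped wild-type marrow through vavcre library 4 and missed the threshold (log2 fold change -2.63 ± 0.87, adjusted p = 0.0574). Without that library its log2 fold change was -4.57 (adjusted p = 0.00391), and it was also called without vavcre library 6 (adjusted p = 0.0452). C1qb was called in neither line alone. With vavcre its log2 fold change was -1.61 ± 0.74 (adjusted p = 0.120), or -5.49 without library 6, which leaves 1 library. Without vavcre it was -4.77 ± 1.05 on 5 reads (adjusted p = 0.0508). By summed counts over both lines C1qb was 4.94-fold lower, less than its fitted 9.14-fold.

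Spic stood at 0.0422 and 0.844 CPM with vavcre and at 1.58 and 0.752 CPM without it, against 3.38, 5.33 and 4.05 CPM in wild-type marrow. The groups did not overlap, and the fall was 5.88-fold over the lines (log2 fold change -2.56 ± 0.70, adjusted p = 0.0235). Leaving out inducible library 1 (adjusted p = 0.0525) or 5 (0.0833), or wild-type marrow library 5 (0.0642) or 6 (0.0578), ended the call.

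Cd5l stood at 0.127 and 0.759 CPM with vavcre and at 0 CPM in both libraries without it, against 0.596, 1.46 and 0.822 CPM in wild-type marrow. Vavcre library 6 lay inside the wild-type range. Without vavcre Cd5l was at least 10.96-fold lower than in wild-type marrow, taking 3 counts over its libraries as the floor, but that comparison was not called (adjusted p = 0.117). Over both lines it was called (adjusted p = 0.0289), and this ended without inducible library 1 (0.0882) or 5 (0.0859), or wild-type marrow library 5 (0.0879) or 6 (0.0600).

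Mertk had 1 read in vavcre library 4 and 0 in library 6, and stood at 0.121 and 0.591 CPM without vavcre, against 1.14, 0.527 and 0.767 CPM in wild-type marrow. The vavcre libraries were below the wild-type range and inducible library 5 lay inside it. With vavcre the ratio to wild-type marrow was 0.0254 (counting interval 0.000631 to 0.149, adjusted p = 0.0126). The call over both lines (adjusted p = 0.0348) ended without inducible library 1 (0.101), vavcre library 6 (0.0695), or wild-type marrow library 2 (0.122) or 6 (0.0729).

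Line by line, 5 of 8 members were lower with vavcre (Vcam1, Hmox1, C1qc, Spic and Mertk), beside 26.8% of all tested genes called, 14.3% lower and 12.5% higher. Of these, C1qc was not called without vavcre library 4 (adjusted p = 0.109) or any 1 of the wild-type marrow libraries (0.0564 to 0.0644), Spic without library 4 (0.0634), and Mertk without library 6 (0.0639), whereas C1qa was called without library 4 (0.0133). Without vavcre 2 of 8 were lower (Hmox1 and C1qc), beside 0.804% of all tested genes called, 0.295% lower and 0.509% higher, and leaving out any 1 library of that comparison ended the C1qc call (adjusted p = 0.0783 to 0.4). Between the lines, vavcre over no vavcre, edgeR called 0 of 8 members, beside 20.6% of all tested genes called, 9.37% higher and 11.3% lower. There 4 members had an unadjusted p under 0.05 and DESeq2 called 2 higher, C1qb and Cd5l, both given without a share of all genes. The vavcre libraries 4 and 6 differed from each other more than any other replicate pair, with a chi-square of 64.8 per degree of freedom, against 11.2 to 47.5 in the other pairs. Leaving out library 4 or library 6 gave 3 calls each between the lines, on C1qb, C1qc and Cd5l without library 4 and on Vcam1, C1qa and Spic without library 6.

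Of the lists around the members, macrophage identity had 3 of 13 tested genes lower over the LIN28B lines and 0 higher. They included Timd4, at 0 counts in all 4 libraries against 0.634 ± 0.277 CPM in wild-type marrow (adjusted p = 0.00434), and Mrc1, the mannose receptor, at 0.314 ± 0.289 CPM against 2.23 ± 1.16 CPM (adjusted p = 0.0132). Complement had 5 of 11 lower and 0 higher, among them Cfp, which encodes properdin, at 36.9 ± 1.96 CPM with vavcre and 17.6 ± 0.547 CPM without, against 45.8 ± 12.2 CPM in wild-type marrow (adjusted p = 0.00237 over both lines, and 0.0018 between the lines). Heme and iron genes gave 1 higher and 2 lower of 15, with Blvra, which turns biliverdin into bilirubin, at 111 ± 10.6 CPM with vavcre and 63.7 ± 1.86 CPM without, against 63.2 ± 3.20 CPM in wild-type marrow (adjusted p = 0.0242 over both lines, and 0.00153 between the lines). Clearance genes gave 1 higher and 4 lower of 12, and island adhesion genes 0 of 6. These lists stand beside 6.59% higher and 7.86% lower over all tested genes. The SDs here are over 4 LIN28B libraries, or 2 for each line, and 3 wild-type libraries.

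Among other cell types, 4 of 10 monocyte and dendritic markers, 2 of 9 stroma and endothelium markers, 1 of 4 megakaryocyte markers and 1 of 9 granulocyte markers were lower over the LIN28B lines, and 2 of 12 erythroid markers were higher. Over all tested genes 7.86% were lower and 6.59% higher, so 1 call does not set a list apart. Ms4a6c, a monocyte gene, fell to 10.4 ± 4.45 CPM against 50.9 ± 1.36 CPM in wild-type marrow (adjusted p = 7.66e-05), and Ccr2, the receptor of inflammatory monocytes, to 16.02 ± 14.9 CPM against 59.7 ± 9.26 CPM (adjusted p = 0.0138). Summed monocyte and dendritic markers were 760 to 765 CPM with vavcre and 601 to 641 CPM without, against 775 to 953 CPM in wild-type marrow. Whether fewer cells of these types account for the members' fall was not tested.

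The let-7b/c knock-out libraries had lower values of the members than wild-type marrow, most of them short of the threshold. Strain and genotype cannot be told apart in this comparison. Of 8 tested, 1 was called lower, C1qc, and 0 higher, beside 2.25% of all tested genes called, 0.922% lower and 1.33% higher. DESeq2 called 2 lower, C1qc and Hmox1, and 6 had an unadjusted p under 0.05 in edgeR. Those tallies stand without a share of all genes and add no support. The median log2 fold change was -1.82, against 0.00 over all tested genes. This comparison shares its wild-type marrow libraries with those of LIN28B.

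C1qc stood at 0.270, 0.170 and 0.832 CPM in let-7b/c knock-out libraries 1, 2 and 3, against 3.62, 3.92 and 3.34 CPM in wild-type marrow. The groups were apart and the fall was 8.34-fold (log2 fold change -3.06 ± 0.67, adjusted p = 0.0269). The call ended without knock-out library 1 (adjusted p = 0.0891) or 2 (0.113), and without wild-type marrow library 2 (0.0813), 5 (0.0655) or 6 (0.0652).

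Hmox1 stood at 10.98, 6.62 and 11.8 CPM in the knock-out against 24.5, 24.7 and 14.5 CPM in wild-type marrow (log2 fold change -1.11 ± 0.30, adjusted p = 0.0732). Vcam1 stood at 7.79, 2.83 and 2.44 CPM against 9.23, 12.4 and 19.6 CPM (-1.66 ± 0.64, adjusted p = 0.227). For both genes the groups did not overlap although the test was missed. Spic stood at 0.919, 0.566 and 2.86 CPM against 3.38 to 5.33 CPM (adjusted p = 0.352), and C1qb at 0.973, 1.30 and 0.468 CPM against 3.40 to 5.42 CPM (adjusted p = 0.128). C1qa stood at 1.08, 0.453 and 0 CPM against 1.29 to 2.85 CPM (adjusted p = 0.327) and Cd5l at 0.108, 0 and 0.416 CPM against 0.596 to 1.46 CPM (adjusted p = 0.200). Mertk overlapped, at 0.811, 0.340 and 0.156 CPM against 0.527 to 1.14 CPM (adjusted p = 0.686). How many of all tested genes lie apart between these groups was not counted, so ranges apart add nothing to the test.

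Of 10 monocyte and dendritic markers, 2 were higher in this knock-out and 0 lower. Over all tested genes 1.33% were higher and 0.922% lower. Ccr2 rose to 1471 ± 205 CPM against 59.7 ± 9.26 CPM (adjusted p = 0.000579), and Cx3cr1, a chemokine receptor of monocytes, to 30.7 ± 8.68 CPM against 11.9 ± 2.40 CPM (adjusted p = 0.00574). In the macrophage identity list, with 1 higher and 1 lower of 13, Mpeg1, a pore-forming protein of macrophages, rose to 41.2 ± 21.4 CPM against 6.45 ± 4.63 CPM (adjusted p = 0.0112). Lgmn, a lysosomal protease, rose to 13.1 ± 2.03 CPM against 4.38 ± 0.879 CPM (adjusted p = 0.00293), and Icam4 fell to 20.1 ± 4.08 CPM against 38.1 ± 3.21 CPM (adjusted p = 0.000851). Of 15 heme and iron genes, Ftl1 was higher and Nqo1 lower, and 0 of 11 complement genes were called, with C1qa to C1qc not part of that list.

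The inducible let-7 fetal liver library has no replicate and no test. Hmox1 had 2 reads there, or 0.0775 CPM (counting interval 0.00939 to 0.280), below the 2.996 to 6.08 CPM of wild-type fetal liver. C1qb and C1qc had 1 read each, 0.0388 CPM (counting interval 0.000981 to 0.216), which cannot be told from the wild-type ranges of 0.0454 to 0.431 and 0.0538 to 0.459 CPM at this depth. Vcam1, C1qa, Cd5l, Spic, Axl and Mertk had 0 counts, for which the counting interval reaches up to 0.143 CPM. Wild-type fetal liver also had 0 in at least 1 library for each of these. In the same library Adgre1 had 3 reads and Cd68 stood at 28.1 CPM, against 2.58 to 2.996 CPM in wild-type fetal liver.

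Whether the members moved together apart from the group differences was asked over the 16 libraries of the 6 replicated groups, from each library's deviation from its group mean on the log2 CPM scale (prior count 2). Of 28 pairs, 13 had a positive Pearson correlation, the median was -0.04 and the values ran over -0.69 to 0.84. In two-sided exact permutation tests within groups (5184 arrangements), 0 pairs passed after Benjamini-Hochberg adjustment over the 56 statistics, and 2 Pearson and 2 Spearman values had an unadjusted p under 0.05. With DESeq2 size factors 0 pairs passed as well. Some of these deviations rest on few reads. Vcam1 had 2, 0 and 1 in wild-type fetal liver, and Cd5l had 0 in both inducible libraries without vavcre. Counting error can hide a shared movement there, so the lack of passing pairs does not show that the members move separately.

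C1qc and Cd5l gave the highest value, Pearson's r = 0.84 (exact permutation p = 0.00424) and Spearman's rho = 0.84 (p = 0.00617), both adjusted to 0.173 in the permutation test. Without vavcre libraries 4 and 6, the farthest from the median of C1qc, r was 0.82. Spic and Mertk ran opposite to each other, with r = -0.64 (exact permutation p = 0.0307) and rho = -0.70 (p = 0.0258), adjusted to 0.429 in the permutation test, and r was -0.73 without those libraries. The neighbouring chains C1qb and C1qc gave r = 0.35 (exact permutation p = 0.848) and -0.47 without vavcre libraries 4 and 6, and C1qa and C1qc gave r = -0.69 (exact permutation p = 0.176). For Vcam1 and Hmox1 r was -0.54 (exact permutation p = 0.308). In 10 of 28 pairs the sign turned when the 2 libraries farthest from the median were left out, judged on 1 gene of the pair only.

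**Figure D4:**
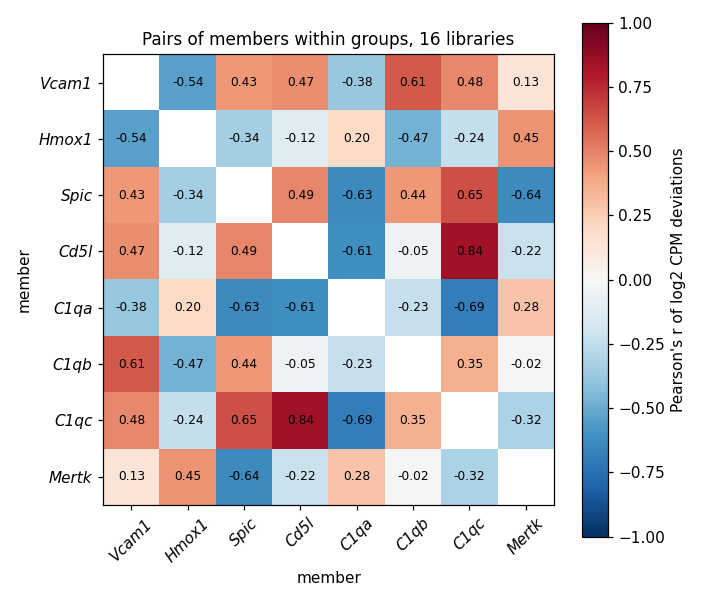
Pearson's r of the log2 CPM deviations from group means for each pair of 8 members over 16 libraries, red for positive and blue for negative. C1qc with Cd5l is the strongest positive pair and C1qa with C1qc the strongest negative one, and no pair passed adjustment.

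Over all 17 libraries, group differences included, other genes followed Vcam1 and Hmox1 closely. Among 9077 genes with at least 1 CPM on average, the 5 most like Vcam1 by Pearson's r of log2 CPM were Slc35e2 (0.93), Cdc42ep3 (0.92), Ubr4 (0.91), Lmo2 (0.91) and Leng8 (0.90), and the member Spic reached 0.94. Those most like Hmox1 included Mcmdc2 (0.95), C2cd2l (0.94), Cat (0.94) and Mtf1 (0.94), and Mertk, the closest member, had 0.89. Cat encodes catalase, which stood at 988 CPM in the libraries labelled Lin28b knockout, 67.7 CPM in the inducible let-7 library and 237 CPM in wild-type fetal liver. These correlations describe libraries that fall into groups, with the libraries labelled Lin28b knockout at the high end, and carry no test.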

How the data were processed

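RNA from sorted CMPs was measured in 17 libraries, made from total RNA with a SMARTer low-input kit, per the labels' protocols. Tools named in the submitters' processing notes are HTSeq, TopHat2 and cutadapt, with build mm10; for versions, parameters and counting strand the entry is not given in the sources used here. Per the file contents, what was deposited are the authors' raw counts per RefSeq transcript, with HTSeq's summary lines at the end of each file. Reads that fit several transcripts (23.8% to 29.8% of uniquely placed reads) or none (8.87% to 19.3%) were left out of library sizes, which lowers genes with several transcripts: 1328 of 5108 such genes (26.0%) were at 0.

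Of 33818 accessions, 33435 were named from RefSeq for GRCm38.p6 and 191 from GENCODE; 192 had no name. Counts were summed per gene, giving 24416 genes. edgeR 4.0.16 (TMM, filterByExpr with a minimum count of 10, quasi-likelihood F test) was fitted once to the 17 libraries (7 means, 1 per group, leaving 10 degrees of freedom), and p-values were adjusted by Benjamini-Hochberg over 13558 genes. SEs were derived from the F statistic. Alternatives were DESeq2 1.42.0, DESeq2 size factors, no filter, genes with 1 transcript, only the groups compared, a replicate block, and each library left out. The fit was tested on simulated data. No 2 libraries of a group agreed within sampling noise. Same-numbered libraries of different groups did not deviate together (r of -0.08 to 0.03), so numbers were not used as pairs.

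The members and lists were chosen with earlier results of these data known. Genes named are the 9 members, up to 4 called genes of each list per comparison by smallest p, the 5 most like Vcam1 and Hmox1, and, chosen after their values were seen, Adgre1, Siglec1, Vsig4, Cd163, Kdr and genes listed at 0. Some genes that this rule names are not reported here. Python 3.11.15, R 4.3.3, numpy 2.4.6, pandas 2.3.3, scipy 1.17.1 and matplotlib 3.10.9 were used.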

Additional observations from a re-analysis of the deposited data

How the results depend on the processing

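The members' comparisons of wild-type marrow and of the libraries labelled Lin28b knockout with wild-type fetal liver kept their counts of called members within 1.5 times under each alternative run (6 to 7 and 8 to 8 with 1 library left out), and no member changed sign there. Counts against wild-type marrow moved. With no filter on low counts, inducible LIN28B without vavcre gave 191 genes and 5 members, vavcre over no vavcre gave 2 members, and the let-7b/c knock-out gave 3 members. DESeq2 gave 403 genes and 4 members for inducible LIN28B, 2 members for vavcre over no vavcre, and 783 genes and 2 members for the knock-out. With only the groups compared in the fit, the LIN28B mean gave 1132 genes and 2 members, inducible LIN28B 268 and 6, vavcre against wild-type marrow 2007 and 2, vavcre over no vavcre 422 genes, and the knock-out 2 members. With 1 library left out, called genes ran over 1083 to 2670 for the LIN28B mean, 26 to 62 for inducible LIN28B, 1379 to 3149 for vavcre over no vavcre and 95 to 370 for the knock-out, and called members over 4 to 8, 0 to 1, 0 to 3 and 0 to 1; where this left 1 library in a line, it was assumed to vary like the other groups. In vavcre over no vavcre the log2 fold change changed sign among these fits for Vcam1 (-5.38 to 0.35), C1qa (-1.62 to 3.58), Hmox1 (-0.70 to 0.44), C1qb (-0.72 to 4.47) and C1qc (-0.43 to 3.75), the reversed values being 0.35 and 0.26 for Vcam1, -1.62 for C1qa, 0.05 and 0.44 for Hmox1, -0.72 for C1qb and -0.43 for C1qc. The cause was not tested.

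A fit with the replicate number as a block, which has 4 residual degrees of freedom where the main fit has 10, gave 2185 genes for wild-type marrow over liver, 3073 for the libraries labelled Lin28b knockout, 274 genes and 4 members for the LIN28B mean, 16 and 0 for inducible LIN28B, 1539 and 2 for vavcre against wild-type marrow, 435 genes for vavcre over no vavcre, and 35 and 0 for the knock-out. Under the block C1qb was not called in marrow over liver (adjusted p = 0.0633), and vavcre over no vavcre turned sign for Vcam1 (0.54) and C1qa (-0.36). The numbers do not pair the libraries. Whether a call was lost there through the fewer degrees of freedom or through a changed estimate was not tested.

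The 2 libraries farthest from the median were judged on the gene named first in each pair here. Without them, Pearson's r turned sign for Vcam1 with C1qa (0.39), C1qb (-0.23), C1qc (-0.23) and Spic (-0.26). It also turned for Hmox1 with C1qa (-0.0469), C1qc (0.0253) and Cd5l (0.18), and for C1qb with C1qc (-0.47), Spic (-0.20) and Mertk (0.15). Groups that sum to under 10 counts limit the fold changes and the pair correlations of the members they concern.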
